A study of Homo sapiens with 4 samples.

Results

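Coregulators are the proteins through which an estrogen receptor acts on chromatin after it has bound its ligand. Agonist-bound receptor recruits p160 coactivators, which bring in histone acetyltransferases and the arginine methyltransferase CARM1, and Mediator then links the receptor to RNA polymerase II. Corepressors such as NCOR1 bring histone deacetylases instead, and NRIP1 competes with coactivators for the agonist-bound receptor. GPER is different, a G protein-coupled receptor at cell membranes that responds to estrogens independently of ERα and ERβ.

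The expression of 9 genes, 8 estrogen receptor coregulators (NCOA1, NCOA2, NCOA3, NCOR1, NRIP1, PELP1, CARM1 and MED1) and GPER, was examined in ALDH+ ovarian cancer stem cells (OCSCs). The genes were picked by symbol from the 23228 in the count files, and all 9 were present and passed the filter on low counts. The cells, labelled as the established ovarian cancer cell line SKOV3, had been sorted for aldehyde dehydrogenase activity and grown as spheroids without serum. They were exposed for 24 h to vehicle (2 samples) or to 5 µM of the synthetic ERβ agonist LY500307 (2 samples), and their RNA was sequenced. No ALDH- cells, other doses or other times were among these samples. The sort and the culture, with EGF, bFGF, hydrocortisone and insulin in the medium, were therefore common to both groups. The comparison addresses whether the genes that carry estrogen receptor signals were themselves altered at the RNA level by the agonist.

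Between 28841701 and 34943882 reads were counted on genes in each sample. The replicates were not copies of one library, with a chi-square per degree of freedom between them of 5.16 for vehicle and 42.5 for LY500307. The LY500307 samples therefore differed from each other more than the vehicle samples did. The labels do not say whether replicates were separate cultures, so the tests measure the spread between these samples, which may be technical. The RNA did not match several textbook features of SKOV3. PAX8, a Müllerian lineage factor, had 0 reads in each sample, KRT7 had at most 1 read, and KRT19 had at most 2. ERBB2, amplified in SKOV3, was at 49.9 CPM (counts per gene scaled to a common library size) in vehicle samples, against 1420 CPM for PDGFRA. WT1 and MUC16 had at most 6 reads, and no mismatch is read from them. Of the 9 epithelial markers 4 passed the filter on low counts, EPCAM at 213 CPM, KRT18 at 24.9 CPM, ERBB2 and, on 9 to 33 reads, KRT8, and the summed level of the list was between 283 and 330 CPM. The summed level of the 5 leukocyte markers was between 0.634 and 0.985 CPM, and PECAM1 and CDH5, of endothelial cells, had at most 4 reads beside 142 CPM for KDR in vehicle samples. The part of these features in the values of the 9 genes was not tested. The cells are called OCSCs, as labelled, and no other line is named.

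A receptor bound to DNA can act at the promoter of a gene, among other places. The windows from 250 bases before to 50 bases after each transcription start listed by RefSeq were searched. Sequence outside them was not searched, so the counts do not say whether the receptor can act on a gene. Of the 9 genes, 8 had such windows, 15 in all, and NCOA2 had none in the table. The full estrogen response element, GGTCANNNTGACC, was in 0 of the 15 windows and in 0.057% of the 35116 windows of all genes. Its half-site GGTCA, on either strand, was in 2 of the 15 and in 37.4% of all windows. The GC box GGGCGG, on either strand, was in 9 of the 15 and in 45.0% of all windows. A full element also holds half-sites, and a match describes letters only. The 2 windows with a half-site were the single window of MED1 and 1 of the 3 of NRIP1. They are printed because MED1 and NRIP1 were also the genes whose treated samples lay below both vehicle samples. A link between half-site and level was not tested. The first of the 2 GPER windows is printed as that of the membrane receptor. Each is written 5′ to 3′ on the strand of the gene, with the half-site (read here as TGACC, its form on the other strand) in capitals. The MED1 window was chr17:37607467-37607766 on the minus strand, the NRIP1 window chr21:16437272-16437571 on the minus strand and the GPER window chr7:1126504-1126803 on the plus strand. The sequences came from RefSeq on GRCh38.p14 and were placed on GRCh37 by exact match, which gave these coordinates.
MED1: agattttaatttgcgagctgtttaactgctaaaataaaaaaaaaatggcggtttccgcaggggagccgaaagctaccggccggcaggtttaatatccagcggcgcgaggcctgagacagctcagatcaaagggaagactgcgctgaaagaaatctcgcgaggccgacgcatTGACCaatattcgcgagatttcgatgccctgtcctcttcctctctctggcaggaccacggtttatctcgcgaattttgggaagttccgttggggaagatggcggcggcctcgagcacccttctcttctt
NRIP1: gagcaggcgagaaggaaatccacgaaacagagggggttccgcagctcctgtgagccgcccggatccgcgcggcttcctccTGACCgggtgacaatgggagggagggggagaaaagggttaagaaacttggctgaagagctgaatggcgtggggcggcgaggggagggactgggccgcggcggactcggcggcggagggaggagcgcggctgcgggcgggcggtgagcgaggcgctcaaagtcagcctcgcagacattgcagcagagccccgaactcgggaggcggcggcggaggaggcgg
GPER: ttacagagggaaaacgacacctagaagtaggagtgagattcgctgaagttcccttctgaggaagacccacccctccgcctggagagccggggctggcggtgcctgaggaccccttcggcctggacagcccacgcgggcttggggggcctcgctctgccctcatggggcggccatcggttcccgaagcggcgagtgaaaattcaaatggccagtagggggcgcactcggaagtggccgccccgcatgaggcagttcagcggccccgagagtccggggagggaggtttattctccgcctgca

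None of the 9 genes passed the test for a difference between LY500307 and vehicle. With edgeR's quasi-likelihood test, 0 of 9 had an unadjusted p below 0.05, where 11.6% of the 14473 genes tested did. With DESeq2 the count was also 0 of 9, against 1415 of the 18407 genes tested there. The study's criteria, an unadjusted p below 0.05 with an absolute log2 fold change above 0.5, were met by 0 of 9 genes and by 4.62% of all genes tested. At an adjusted p below 0.05, edgeR called 0 genes of the whole table and DESeq2 called 16. The 9 log2 fold changes ran from -0.20 (MED1) to 0.05 (GPER), 7 of them below zero, with a median of -0.05 against 0.00 over all genes tested. Over the 3554 genes with 8 kb or more of exons, a length that 6 of the 9 had, the median was -0.06. The 95% intervals of all 9 lay inside a log2 fold change of -0.5 to 0.5, as did those of 43.1% of all genes tested. At this depth and with 2 samples a group, changes larger than this limit were outside the interval of each gene. The intervals of NCOA2, NCOA3 and PELP1 all lay within -0.26 to 0.23. In 2 of the 9 genes, NRIP1 and MED1, both LY500307 samples lay below both vehicle samples, and such a separation in either direction was seen in 48.6% of all genes tested. In bulk RNA, a lower level in each cell and fewer cells that express a gene cannot be told apart.

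**Figure D1:**
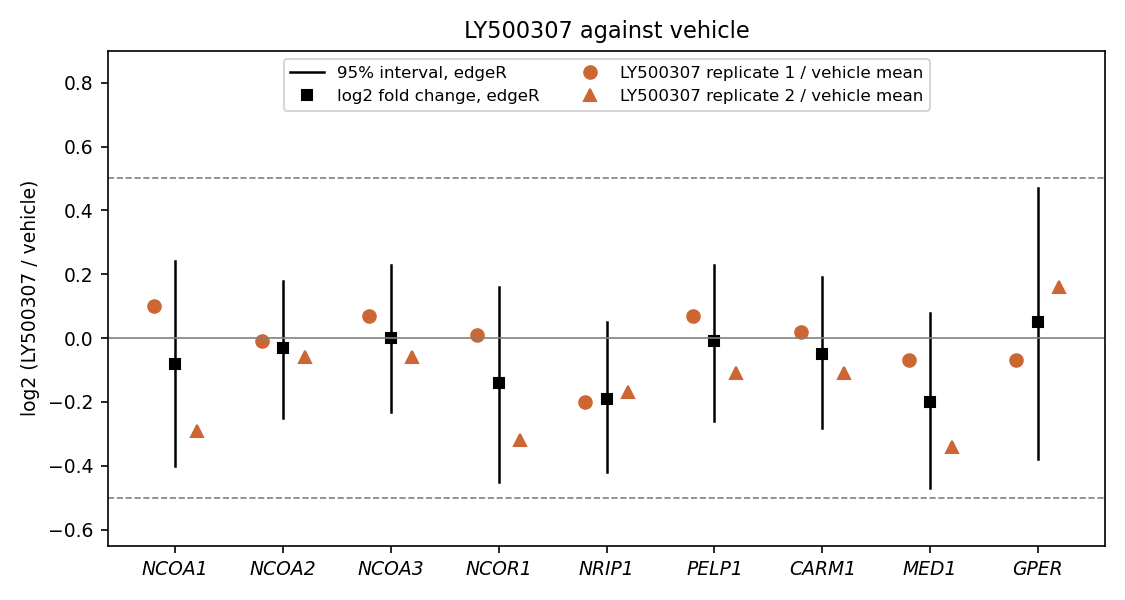
Log2 ratio of LY500307 to vehicle (y axis) for the 9 genes (x axis). Squares are edgeR's log2 fold changes with 95% intervals as lines, circles and triangles are LY500307 replicates 1 and 2 against the vehicle mean, and dashed lines mark log2 fold changes of -0.5 and 0.5. All 9 intervals stayed between the dashed lines, and replicate 2 of LY500307 was below the vehicle mean for 8 genes.

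The p160 coactivators are 3 related proteins, NCOA1 (SRC-1), NCOA2 (TIF2 or GRIP1) and NCOA3 (AIB1), that bind the ligand-binding domain of agonist-occupied nuclear receptors. NCOA1, on chromosome 2 of GRCh37 from 24714123 to 24993571, had 2575 and 2413 reads with vehicle and 3177 and 2258 reads with LY500307. These were 85.9 and 84.9 CPM with vehicle and 91.5 and 69.9 CPM with LY500307. The vehicle samples were almost identical, whereas the LY500307 samples fell on either side of them. Its log2 fold change was -0.08 (standard error 0.14, 95% interval -0.40 to 0.24, adjusted p = 0.809 with edgeR).

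NCOA2, on chromosome 8 from 71022017 to 71316043, had 120 and 118 CPM with vehicle and 118 and 114 CPM with LY500307. All 4 values lay within a few CPM of each other, and the groups overlapped. Its log2 fold change was -0.03 (standard error 0.09, 95% interval -0.25 to 0.18). NCOA3, an oncogenic coactivator gene on chromosome 20 from 46130631 to 46285621, had 142 CPM in both vehicle samples and 149 and 136 CPM with LY500307. The treated samples bracketed the vehicle samples, with a log2 fold change of 0.00 (standard error 0.10, 95% interval -0.23 to 0.23). NCOA3 gave the largest share of p160 transcripts per length in all 4 samples, 43.8% and 44.4% with vehicle and 44.6% and 45.7% with LY500307. NCOA2 gave between 29.8% and 32.3% and NCOA1 between 22% and 25.7%, so the order of the 3 coactivators was the same in each sample.

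CARM1 methylates histone H3 and p160 proteins once p160 coactivators have recruited it. It lies on chromosome 19 from 10982229 to 11033751 and had 163 and 170 CPM with vehicle and 168 and 154 CPM with LY500307. The groups overlapped, with a log2 fold change of -0.05 (standard error 0.10, 95% interval -0.28 to 0.19). Of its merged exons, 20.2% overlap those of YIPF2 on the opposite strand, so its counts are uncertain there, since the strand setting of the counting is not known. The other 6 arginine methyltransferases tested had log2 fold changes from -0.01 (PRMT1) to 0.12 (PRMT5). With edgeR, 0 of 6 had an unadjusted p below 0.05, where 11.6% of all genes tested did.

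MED1 is the Mediator subunit that contacts nuclear receptors directly. It lies on chromosome 17 from 37560538 to 37607525, and it had 11049 and 10253 reads with vehicle and 12083 and 9326 with LY500307. In CPM, the vehicle samples were at 369 and 361 and the LY500307 samples at 348 and 289. Both treated samples were below both vehicle samples, the second of them by much more than the first. The mean was 365 ± 5.59 CPM (SD, n = 2) with vehicle and 318 ± 42.2 CPM (SD, n = 2) with LY500307. Its log2 fold change was -0.20, or 12.7% lower (standard error 0.12, 95% interval -0.47 to 0.08, adjusted p = 0.506 with edgeR). A lncRNA on the opposite strand overlaps 8.8% of its exons. Against the vehicle mean, the log2 ratio was -0.07 for LY500307 replicate 1 and -0.34 for replicate 2.

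Per kb of exons MED1 was the most highly expressed of 33 Mediator genes, with 39.7 CPM per kb over the 4 samples, ahead of MED4 at 31.1 and MED14 at 19.5. Of the 32 other Mediator genes, 22 had a log2 fold change above zero and 10 below, with a median of 0.08. Over all genes tested, 7233 were above zero and 7240 below. With edgeR, MED8 (log2 fold change 0.29) was the only one of the 32 with an unadjusted p below 0.05, where 11.6% of all genes tested had one. MED9 (0.33) had the next smallest p. MED1 lies near ERBB2 on chromosome 17. Among 15 genes of that stretch MED1 had the second highest level per kb, behind RPL19 at 148 CPM per kb, with CDK12, its neighbour, at 21.7 and ERBB2 at 5.22.

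Among the corepressors, NCOR1, a scaffold for histone deacetylase HDAC3, lies on chromosome 17 from 15932379 to 16121499. It had 381 and 378 CPM with vehicle and 384 and 304 CPM with LY500307. The first treated sample was level with the vehicle samples and only the second was lower. The means were 380 ± 2.16 CPM (SD, n = 2) and 344 ± 56.5 CPM (SD, n = 2). The log2 fold change of NCOR1 was -0.14 (standard error 0.13, 95% interval -0.45 to 0.16, adjusted p = 0.636 with edgeR).

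NRIP1 encodes RIP140, a ligand-dependent corepressor whose own gene is known as estrogen-induced in breast cancer cells. It lies on chromosome 21 from 16333556 to 16438257, and it had 6717 and 5803 reads with vehicle and 6469 and 6136 reads with LY500307. Scaled to library size, these were 224 and 204 CPM with vehicle and 186 and 190 CPM with LY500307. Both treated samples were lower than both vehicle samples and close to each other, and here the vehicle samples had the wider spread. The means were 214 ± 14.1 CPM (SD, n = 2) and 188 ± 2.43 CPM (SD, n = 2). The log2 fold change was -0.19, or 12.2% lower (standard error 0.10, 95% interval -0.42 to 0.05), and the adjusted p of 0.465 with edgeR was the lowest of the 9 genes. Against the vehicle mean, the log2 ratios of the treated samples were -0.20 and -0.17. A lncRNA on the opposite strand overlaps 6.6% of its exons. The unadjusted p of NRIP1 was 0.103 with edgeR, and 22.2% of all genes tested ranked at or ahead of it. Over the 4 samples, and among 1399 genes with a mean CPM within 1.5 times of that of NRIP1, the centred log2 profiles closest to it were those of PTPN13 (Euclidean distance 0.0398), MSRB3 (0.0465) and NUP107 (0.0576).

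PELP1 is a scaffold that couples estrogen receptors to kinases and chromatin modifiers and also works in ribosome biogenesis. It lies on chromosome 17 from 4573069 to 4607632. Its levels were 144 and 155 CPM with vehicle and 157 and 139 CPM with LY500307, so the treated samples bracketed the vehicle samples. PELP1 differed by a log2 fold change of -0.01 (standard error 0.11, 95% interval -0.26 to 0.23). Of the 7 partners in its nucleolar complexes, only WDR18 had an unadjusted p below 0.05 with edgeR (log2 fold change 0.43, standard error 0.16). Of all genes tested, 11.6% did. SENP3, with the next smallest p, had a log2 fold change of 0.25.

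**Figure D2:**
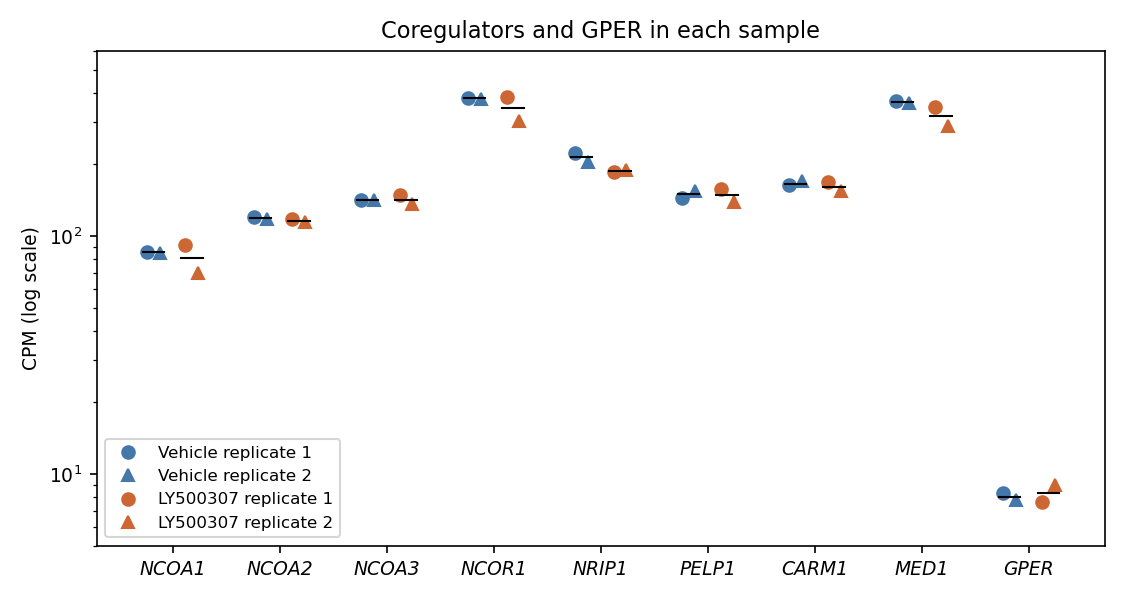
Expression of each gene (x axis) in CPM on a log scale (y axis). Circles and triangles are replicates 1 and 2, blue is vehicle, orange is LY500307, and short lines are group means. NRIP1 and MED1 were lower in both treated samples, and for NCOA1, NCOR1 and MED1 LY500307 replicate 2 lay apart from the other samples.

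GPER (GPER1 in the annotation), on chromosome 7 from 1121844 to 1133451, lies inside the span of C7orf50 on the opposite strand, with 0 exonic bases shared. It had 249 and 221 reads with vehicle and 265 and 290 reads with LY500307. The exact Poisson 95% intervals of these counts were 219 to 282 and 193 to 252 with vehicle, and 234 to 299 and 258 to 325 with LY500307. These intervals cover counting error only. In CPM, the vehicle samples were at 8.31 and 7.78 and the LY500307 samples at 7.64 and 8.97, on either side of the vehicle values. Its log2 fold change was 0.05 (standard error 0.18, 95% interval -0.38 to 0.47, adjusted p = 0.927 with edgeR), the widest interval of the 9 genes.

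GPER signals through G proteins and adenylyl cyclases and transactivates EGFR. Of 19 genes of this pathway 15 were tested. With edgeR, 0 of 15 had an unadjusted p below 0.05, where 11.6% of all genes tested did. Of the 15 log2 fold changes, 13 were above zero (median 0.07), where 7233 of all 14473 genes tested were. ADCY5, an adenylyl cyclase, had the smallest p on only 7 to 37 reads a sample (log2 fold change 1.29, standard error 0.58), and GNAI1, an inhibitory G protein subunit, followed at 0.24. Of 6 genes known to respond to GPER, 0 had an unadjusted p below 0.05 with edgeR, beside the same 11.6% of all genes tested. Among the 6, log2 fold changes were 0.43 for CTGF (standard error 0.24) and 0.25 for ATF3 (standard error 0.21). EGR1, the most abundant of the 6 at 232 CPM with vehicle, had a log2 fold change of -0.17, and FOS had -0.02.

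The nuclear estrogen receptors themselves were hardly represented. ESR1, which encodes ERα, had 0 reads in each sample, which allows up to 3 reads, or between 0.0864 and 0.106 CPM. ESR2, which encodes ERβ, the target of LY500307, had 7 and 8 reads with vehicle and 12 and 7 reads with LY500307, below the filter for testing. Its exact Poisson 95% intervals were 2.81 to 14.4 and 3.45 to 15.8 reads with vehicle, and 6.20 to 21.0 and 2.81 to 14.4 with LY500307, so no difference was detectable at this depth. Every sample held more GPER than ESR2 reads, by 35.6-fold and 27.6-fold with vehicle and 22.1-fold and 41.4-fold with LY500307. Per kb of merged exons the ratio ran from 84.4 to 158, and with the length of each gene's canonical transcript from 57.8 to 108. PGR, a classical target of ERα, was also at 0 reads. Of the estrogen-related receptors, which use the same p160 coactivators, ESRRA was at 31.4 CPM with vehicle and 37.1 CPM with LY500307 (log2 fold change 0.24, standard error 0.14). ESRRB was at only 7 to 23 reads a sample (log2 fold change -1.31, standard error 0.66, unadjusted p = 0.0815 with edgeR).

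Between genes, levels are comparable only per length of exons. On that scale MED1 was the highest of the 9 genes with 39.7 ± 4.22 CPM per kb (SD over all 4 samples), followed by CARM1 with 37 ± 1.60, and their ranges overlapped. NRIP1 (23.7 ± 2.02), NCOR1 (23.2 ± 2.48) and PELP1 (22.7 ± 1.32) followed, with overlapping ranges. NCOA3 (16.9 ± 0.637), NCOA2 (11.7 ± 0.258) and NCOA1 (9.25 ± 1.03) came next, and each was separate from its neighbours. GPER was lowest with 2.62 ± 0.194 CPM per kb. All 8 coregulators were above the median of 5.74 CPM per kb over the 13786 genes tested with a known length, between its 62.4 and 92.6 percentiles, whereas GPER was at the 33.2 percentile. With canonical transcript lengths, chosen after the data were seen, CARM1 (49.6) was above MED1 (42.0), with separate ranges, and NRIP1 (25.9) came after NCOR1 (33.8) and PELP1 (29.3), with ranges that overlapped between neighbours.

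**Figure D3:**
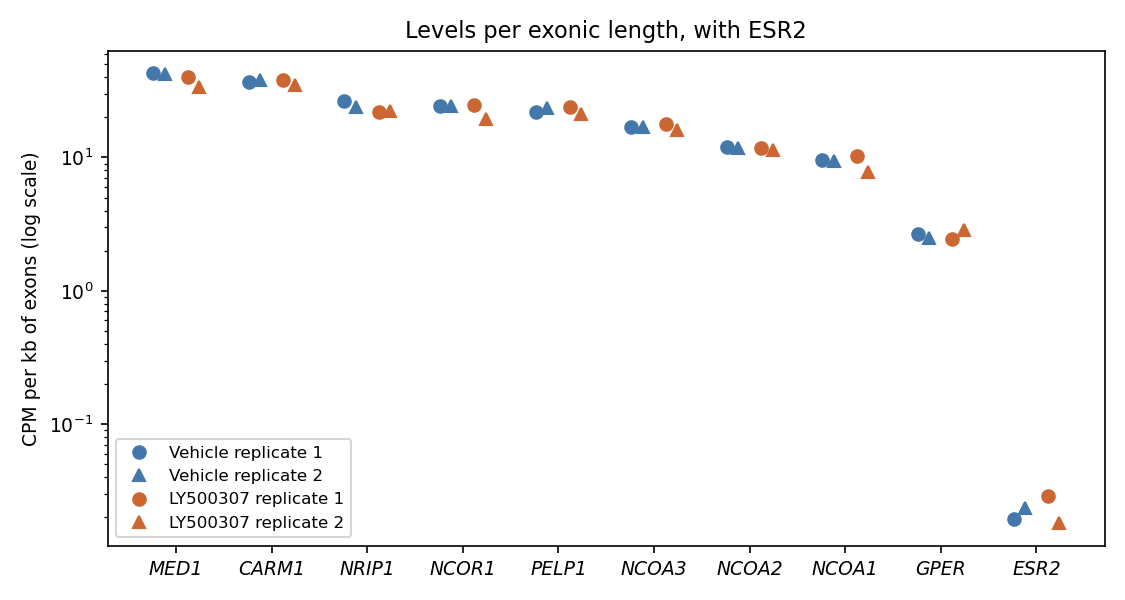
Levels in CPM per kb of merged exons, on a log scale (y axis), of the 9 genes in order of their mean, with ESR2 for comparison (x axis). Each point is a sample, blue for vehicle and orange for LY500307, with circles for replicate 1 and triangles for replicate 2. MED1 and CARM1 were highest, the p160 genes lay between 7.78 and 17.7, and GPER between 2.44 and 2.87, with ESR2 at 0.0290 or below.

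The treated samples spread more widely than the vehicle samples. In 8 of the 9 genes, all but NRIP1, the LY500307 samples differed more than the vehicle samples, as they did in 66.7% of all genes tested. The coefficient of variation (SD as a share of the mean) between LY500307 samples was 19.0% for NCOA1, 16.4% for NCOR1 and 13.2% for MED1. Between vehicle samples it was 0.84%, 0.568% and 1.53% for the same genes. LY500307 replicate 2 was below the vehicle mean for 8 of 9 genes and replicate 1 for 4 of 9. Their median log2 ratios were -0.11 and 0.01 over the 9 genes, beside -0.0045 and -0.0011 over all genes tested. Gene length moved with this difference between replicates. The median log2 ratio of LY500307 replicate 2 to replicate 1 was -0.06 over the 3554 genes of 8 kb or longer and 0.10 over the 1317 genes under 2 kb, and it was -0.13 over the 9 genes, of which 6 had 8 kb or more of exons. With a correction for exonic length, the log2 fold change was -0.16 for MED1, -0.15 for NRIP1, -0.08 for NCOR1 and -0.05 for NCOA1. In that fit 0 of 9 genes had an unadjusted p below 0.05 with edgeR, against 1536 of the 14473 genes tested.

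With either treated sample left out, the spread came from the vehicle samples alone. For MED1, NCOR1 and NCOA1 the log2 fold change then depended on which treated sample was kept, and for NRIP1 it hardly did. Without LY500307 replicate 1, the remaining treated sample was assumed to vary like the vehicle samples, and 4 of 9 genes had an unadjusted p below 0.05 with edgeR, where 40.3% of all genes tested in that fit did. These were MED1 (log2 fold change -0.34), NCOR1 (-0.32), NCOA1 (-0.29) and NRIP1 (-0.17), in a fit that called 5002 genes at an adjusted p below 0.05. Without LY500307 replicate 2, only NRIP1 did (-0.20), and the log2 fold changes of MED1, NCOR1 and NCOA1 were -0.06, 0.02 and 0.10. In that fit 15.3% of all genes tested had an unadjusted p below 0.05, so in neither fit was the count of the 9 genes far from the share over all genes. Without vehicle replicate 1 or 2, the count was 0 of 9, against 5.05% and 5% of all genes tested, and the log2 fold change of NRIP1 was -0.12 and -0.25.

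The wider set of coregulators was described from lists of related genes. Among 30 other coactivators tested, 20 had a log2 fold change below zero (median -0.11), and 3 lower and 2 higher genes had an unadjusted p below 0.05, where 5.5% and 6.09% of all genes tested did. The 2 higher ones were KAT2B, an acetyltransferase (log2 fold change 0.52, standard error 0.18), which met the study's criteria, and SRA1 (0.48, standard error 0.13), whose RNA is itself a coactivator. The 3 lower ones were PPARGC1B (-0.35), TRIM24 (-0.34) and RBM39 (-0.26), all coactivators of nuclear receptors. Among 25 other corepressors tested, 18 had a log2 fold change below zero (median -0.07). Over all 14473 genes tested, 7240 were below zero. BRCA1, which also represses ERα (-0.33, standard error 0.10), and COBRA1, a subunit of the NELF complex that pauses polymerase (0.50, standard error 0.17), were the 2 with an unadjusted p below 0.05, and COBRA1 met the study's criteria. With edgeR, the adjusted p over all genes tested was above 0.05 for every gene of these lists.

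**Figure D4:**
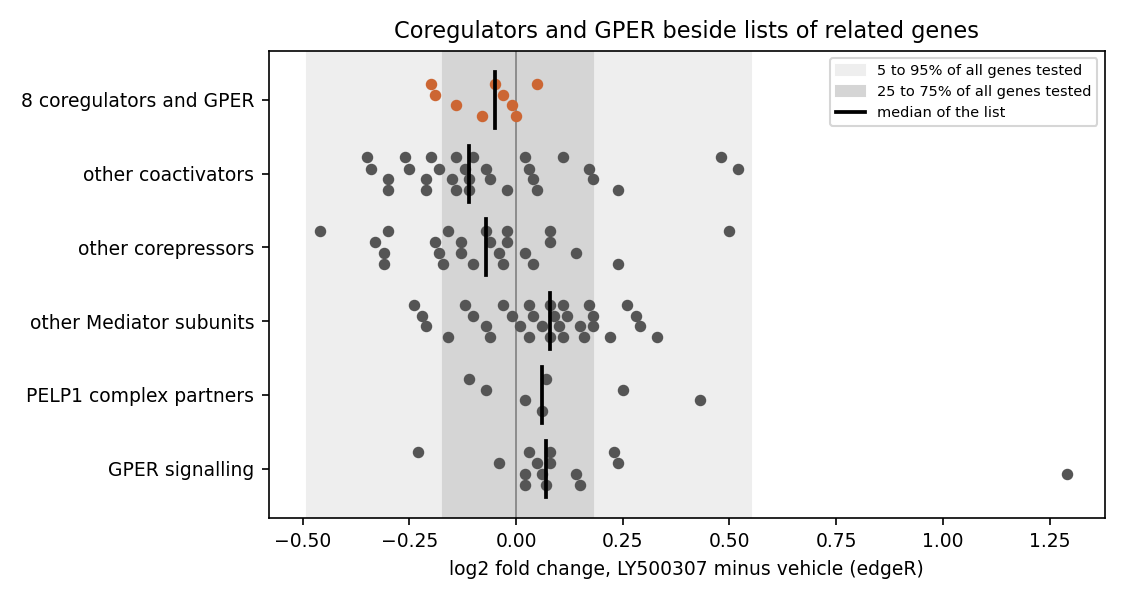
Log2 fold change of LY500307 against vehicle (x axis) for the 9 genes, in orange, and for 5 lists of related genes, in grey (y axis). Each point is a gene, vertical lines are list medians, and the shaded bands run from the 25% to the 75% quantile of all genes tested, -0.17 to 0.18 (dark), and from the 5% to the 95% quantile, -0.49 to 0.55 (light). The 9 genes stayed within -0.20 and 0.05, inside the light band, as did all coregulators and Mediator subunits shown.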

How the data were processed

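Per the submitters' processing notes, TopHat2 2.0.8b, HTSeq and hg19 were used, and the authors deposited raw counts per gene symbol. HTSeq's version, annotation and strand setting are not given in the sources used here. The labels name a total RNA kit and the study's methods a stranded mRNA kit, so reads from overlapping genes on opposite strands are uncertain. Tally rows that name no gene held 50.0% to 54.4% of all tallied entries and were left out. Here, counts were tested with edgeR 4.0.16 in R 4.3.3 (TMM, filterByExpr, quasi-likelihood test, Benjamini-Hochberg adjustment over all genes tested), with LY500307 against vehicle and no block. The standard error was the absolute log2 fold change divided by the square root of F. CPM used TMM-scaled library sizes. Exonic lengths came from GENCODE on GRCh37, to which 91.8% of symbols matched. DESeq2 1.42.0 was one of the alternatives. The members and lists were chosen with earlier results of these data known. Named genes were the 9 members, ESR1, ESR2, ERBB2, the 3 genes most like NRIP1 in profile, and in each list the 2 with the smallest p and any meeting the study's criteria. One other gene of the rule is not reported here. PPARGC1B, TRIM24, RBM39, MED4, MED14, CDK12, PRMT1, EGR1, FOS, PGR and the marker genes were named after their values were seen. The pipeline was tested on simulated counts of these 4 libraries. Of 200 genes given a log2 difference of 1 or -1 among 14312 tested, 96% met the study's criteria, as did 227 unchanged genes. With no gene changed, 210 of 14319 genes met them. Both groups were simulated with the same spread, whereas the LY500307 samples here differed more than the vehicle samples. The planted change was larger than that of any of the 9 genes, so the simulation does not show how changes of their size would be found.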

Additional observations from a re-analysis of the deposited data

How the results depend on the processing

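The smallest two-sided p of an exact permutation test with 2 samples against 2 is 0.333, and calls therefore rest on the spread shared across genes. Of 108 log2 fold changes of the 9 genes under 12 alternatives, 89 kept their direction and their side of the threshold on unadjusted p, 5 passed it only with a treated sample left out, and 14 changed sign, all of them in values between -0.07 and 0.10. These sign changes were NCOA2 with library totals alone (0.00), with exonic length correction (0.01) and with the replicate block and length correction (0.01), PELP1 with library totals alone (0.02) and GPER with the replicate block and length correction (0.00). With 1 sample left out at a time, the log2 fold change ran from -0.29 to 0.10 for NCOA1, from -0.06 to 0.07 for NCOA3, from -0.32 to 0.02 for NCOR1, from -0.11 to 0.02 for CARM1, from -0.10 to 0.07 for PELP1 and from -0.07 to 0.16 for GPER. MED1 and NRIP1 stayed below zero under all 12. The number of the 9 genes with an unadjusted p below 0.05 was 0 under the 8 alternatives with all samples and ran from 0 to 4 with a sample left out. The number meeting the study's criteria was 0 under all 12.

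Genes meeting the study's criteria numbered 669, and with 1 sample left out at a time they numbered from 352 (LY500307 replicate 2 left out) to 1987 (LY500307 replicate 1 left out). Of the 669, 59.8% were higher with LY500307. Among the genes each alternative called, the share was 69.7% of 694 with library totals alone, which moved the median of all genes to 0.04, 50.9% of 589 with exonic length correction, 47% of 676 with the replicate block and length correction, and 42% of the 352 with LY500307 replicate 2 left out. Genes with an adjusted p below 0.05 numbered 0 with edgeR, 16 with DESeq2, 1 with the replicate block, 164 with the replicate block and length correction, and from 0 to 5002 with a sample left out. The cause was not tested. Same-numbered samples deviated from their group means with a correlation of -0.07 over 14473 genes, and equal numbers were not treated as pairs.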

Other observations

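Of 14 genes near MED1 on chromosome 17, 11 were tested, with a median log2 fold change of 0.19. RPL19, a ribosomal protein gene (0.37, standard error 0.15), was the 1 of 11 with an unadjusted p below 0.05 with edgeR, and ERBB2 had 0.21 (standard error 0.11). IKZF3, a lymphoid transcription factor, had 40 to 63 reads and a log2 fold change of -0.67 (standard error 0.32). Among the 5 fibroblast markers, COL1A2 (log2 fold change 0.44, standard error 0.14) and COL1A1 (0.28, standard error 0.10) had unadjusted p below 0.05 with edgeR, beside the same 11.6% of all genes tested. PDGFRA was at 1420 CPM in both groups (log2 fold change 0.00). DCN (-0.20) and LUM (-0.10) were below both vehicle samples in both treated samples. Such a separation, in either direction, was seen in 48.6% of all genes tested. The summed level of the fibroblast list was 1900 and 1880 CPM with vehicle and 1940 and 2090 CPM with LY500307. Among ALDH genes, ALDH1A1 had between 134 and 185 reads a sample, and ALDH2 was at 65.4 CPM with vehicle and 67.4 CPM with LY500307.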
